A study of Mus musculus with 4 samples.

Results

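Potassium channel subunit genes were taken as the rows of the table of fold changes whose symbol is Kcn followed by letters and a number, which gave 92 of 26815 entries. The rule uses names only and leaves out antisense transcripts such as Kcnq1ot1. The cells were neural stem cells from the cortex of CD-1 mice at E14.5, kept in EGF and bFGF as monolayers on poly-L-ornithine and laminin. One group of 2 libraries carried a scrambled control shRNA (SHC002) from a lentivirus and the other group of 2 an shRNA against Foxp1 (pLKO.1_sh_ex15), and both groups were expanded in puromycin at 0.5 µg/mL. Each group rests on a single shRNA, and its 2 libraries come from different passages. The table sets a condition named q2 against one named q1, once per gene. Which of the codes is the Foxp1 shRNA is written in no label or header, so each direction is that of q2 against q1. No value per library was used here, so the spread between replicates and the read depth are unknown here. Foxp1 itself was 4.09-fold lower in q2 by the authors' deposited table (Cuffdiff q = 0.00162).

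Potassium channels let potassium ions leave or enter a cell along their gradient and so set the resting potential. The pore-forming genes fall into voltage-gated channels (Kcna to Kcnd, Kcnf to Kcnh, Kcnq, Kcns and Kcnv), inward rectifiers (Kcnj), two-pore domain leak channels (Kcnk) and channels opened by internal calcium or sodium (Kcnm, Kcnn and Kcnt), with which the relative Kcnu1, opened by internal alkalinisation, was grouped. Auxiliary subunits (Kcnab, Kcne, Kcnip and Kcnmb) change gating or trafficking of the pore subunits. In neural tissue, inward rectifiers and leak channels hold the resting potential of glia, and voltage-gated channels shape the firing of neurons.

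The potassium channel genes moved in both directions. Of 37 tested members, 5 were called higher in q2 (among them Kcnj12, Kcnv1, Kcng1 and Kcnh2), 3 were called lower (Kcnk1, Kcnj10 and Kcnd2) and 29 were not called, a call being the authors' q under 0.05. The called share of 21.6% stands beside 7.63% of the 15315 tested entries of the whole table, of which 4.24% were called higher and 3.39% lower. An unadjusted p under 0.05 was reached by 16 of the 37 members (43.2%), against 19.2% of all tested entries. The median log2 fold change of the tested members was 0.12 by the authors' deposited table, beside -0.05 for the 15197 tested entries with a finite value, and 20 members were positive and 17 negative. In absolute size the median log2 fold change was 0.52 for the members and 0.32 for all those entries by the authors' deposited table. The error implied by dividing fold change by test statistic had a median of 0.42 for the members and 0.38 for all, on the log2 scale. Calls fell in 7 of the 20 gene families and on 8 chromosomes, and lay only among voltage-gated, inward rectifier and two-pore genes. Of 4 calcium-activated and 6 auxiliary genes tested by Cuffdiff none was called, while 0 and 1 of them had an unadjusted p under 0.05; whether the classes differ was not tested.

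**Figure D1:**
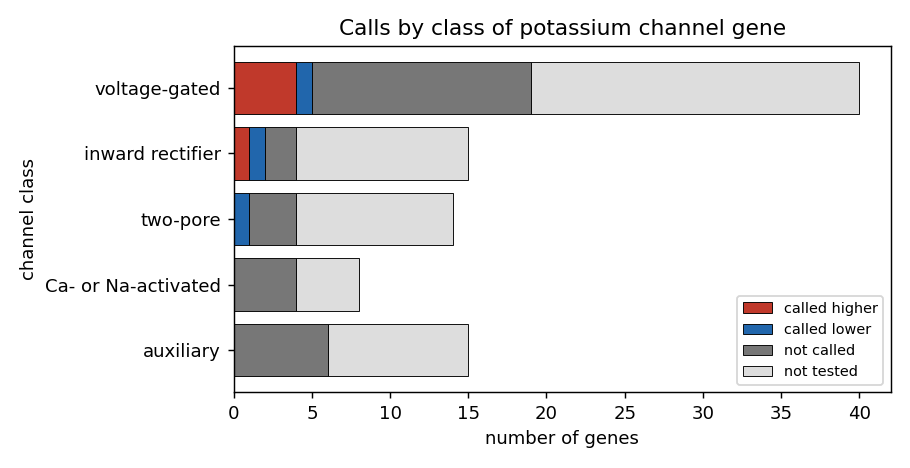
Number of genes (x axis) in each class of potassium channel gene (y axis), split into called higher in q2, called lower, not called and not tested by the authors. Voltage-gated genes hold 5 of the 8 calls, 4 higher and 1 lower, and are 19 of the 37 tested genes. Of the 92 genes 55 were not tested.

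The largest change on the lower side belonged to Kcnk1, which encodes the two-pore leak channel subunit TWIK1 (GRCm38 chromosome 8, 125995102 to 126030688, plus strand). Kcnk1 was 5.76-fold lower in q2 by the authors' deposited table, with a log2 fold change of -2.53, a test statistic of -6.84 and a Cuffdiff q of 0.00162. Its statistic was the largest of the 37 members, and 0.599% of all tested entries had a lower fold change. Kcnj10 encodes Kir4.1, the inward rectifier through which astrocytes and oligodendrocytes take up potassium (chromosome 1, 172341210 to 172374085, plus strand). Kcnj10 was 2.78-fold lower by the authors' deposited table, with a log2 fold change of -1.48 and a Cuffdiff q of 0.00162. Kcnd2 encodes Kv4.2, a subunit of the fast inactivating A-type current (chromosome 6, 21216109 to 21729805, plus strand). Kcnd2 was 2.27-fold lower by the authors' deposited table, with a log2 fold change of -1.18 and a Cuffdiff q of 0.00162. All 3 share the smallest p that the table holds, 5e-05, with 472 entries in all, so q does not rank them.

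The 3 genes called lower start behind unlike sequences, and the 250 bases before each start are shown for that reason, from RefSeq on GRCm38.p6, 5′ to 3′, with CG dinucleotides in capitals. The windows are chr8:125994852-125995101 for Kcnk1, chr1:172340960-172341209 for Kcnj10 and chr6:21215096-21215345 for Kcnd2, all on the plus strand; the first pair end where the authors' loci begin, and the Kcnd2 window ends 763 bases before the edge of its locus.
Kcnk1: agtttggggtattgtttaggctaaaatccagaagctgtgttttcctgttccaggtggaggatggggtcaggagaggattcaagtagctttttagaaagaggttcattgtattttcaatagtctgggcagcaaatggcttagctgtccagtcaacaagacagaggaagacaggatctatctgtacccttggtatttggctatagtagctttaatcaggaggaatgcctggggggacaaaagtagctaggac
Kcnj10: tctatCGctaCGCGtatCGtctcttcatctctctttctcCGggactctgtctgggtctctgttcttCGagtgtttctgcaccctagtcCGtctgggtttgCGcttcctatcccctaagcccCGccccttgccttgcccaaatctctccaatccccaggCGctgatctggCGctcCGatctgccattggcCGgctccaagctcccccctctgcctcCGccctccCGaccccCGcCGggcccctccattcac
Kcnd2: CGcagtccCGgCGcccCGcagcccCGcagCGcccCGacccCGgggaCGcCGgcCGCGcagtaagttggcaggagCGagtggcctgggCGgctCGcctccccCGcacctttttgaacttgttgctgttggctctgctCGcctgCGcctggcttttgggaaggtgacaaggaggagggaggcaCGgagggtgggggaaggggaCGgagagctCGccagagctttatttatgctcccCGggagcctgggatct
Kcnk1 has 0 CG dinucleotides and a GC content of 44.4% in this window, Kcnj10 has 17 and 62.0%, and Kcnd2 has 22 and 68.8%. The median was 6 CG dinucleotides and 52.4% GC over 32851 windows of 27025 genes, with more than 1 window for some genes. It was 8 and 58.8% over the 67 potassium channel genes with a matching window, taken at 1 window a gene. Of these 67 genes 40 were not tested, and 2 were called higher. Some of the windows lie far from the edge of the authors' locus, such as 22013 bases for Kcnh2, 43240 for Kcnj12 and 333672 for Kcnmb1. The letters TGTTTAC or TATTTAC, forms of the core of forkhead motifs, occurred on either strand in 0 of those 67 windows and in 5.76% of all windows, non-coding genes included. Only these spellings were searched. Near spellings occur, among them TATTTAT in the Kcnd2 window and TGTTTAG in the Kcnk1 window, and how often they occur in other windows was not counted. The GC box letters GGGCGG (either strand) occurred in 32 of the 67 windows (47.8%) and in 32.7% of all. These are matches of letters within 250 bases and say nothing about binding.

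Among the genes called higher, the inward rectifier Kcnj12, which encodes the strong rectifier Kir2.2, changed most (chromosome 11, 61022564 to 61073267). Kcnj12 was 4.35-fold higher in q2 by the authors' deposited table, with a log2 fold change of 2.12, a statistic of 3.50 and a Cuffdiff q of 0.00418. Kcnv1 and Kcng1 followed, which encode the silent subunits Kv8.1 and Kv6.1: these form no current alone and modify Kv2 channels. Kcnv1 (chromosome 15, 45106284 to 45114934) was 2.61-fold higher by the authors' deposited table, with a Cuffdiff q of 0.0361. Kcng1 (chromosome 2, 168260292 to 168269331) was 2.53-fold higher by the authors' deposited table, with a Cuffdiff q of 0.00162. Kcnh2, which encodes the ERG channel (chromosome 5, 24319589 to 24351604), was 1.66-fold higher by the authors' deposited table (Cuffdiff q = 0.0402). Kcnh2 did not keep its call once the trend of fold change with GC content was removed, as given further on.

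**Figure D2:**
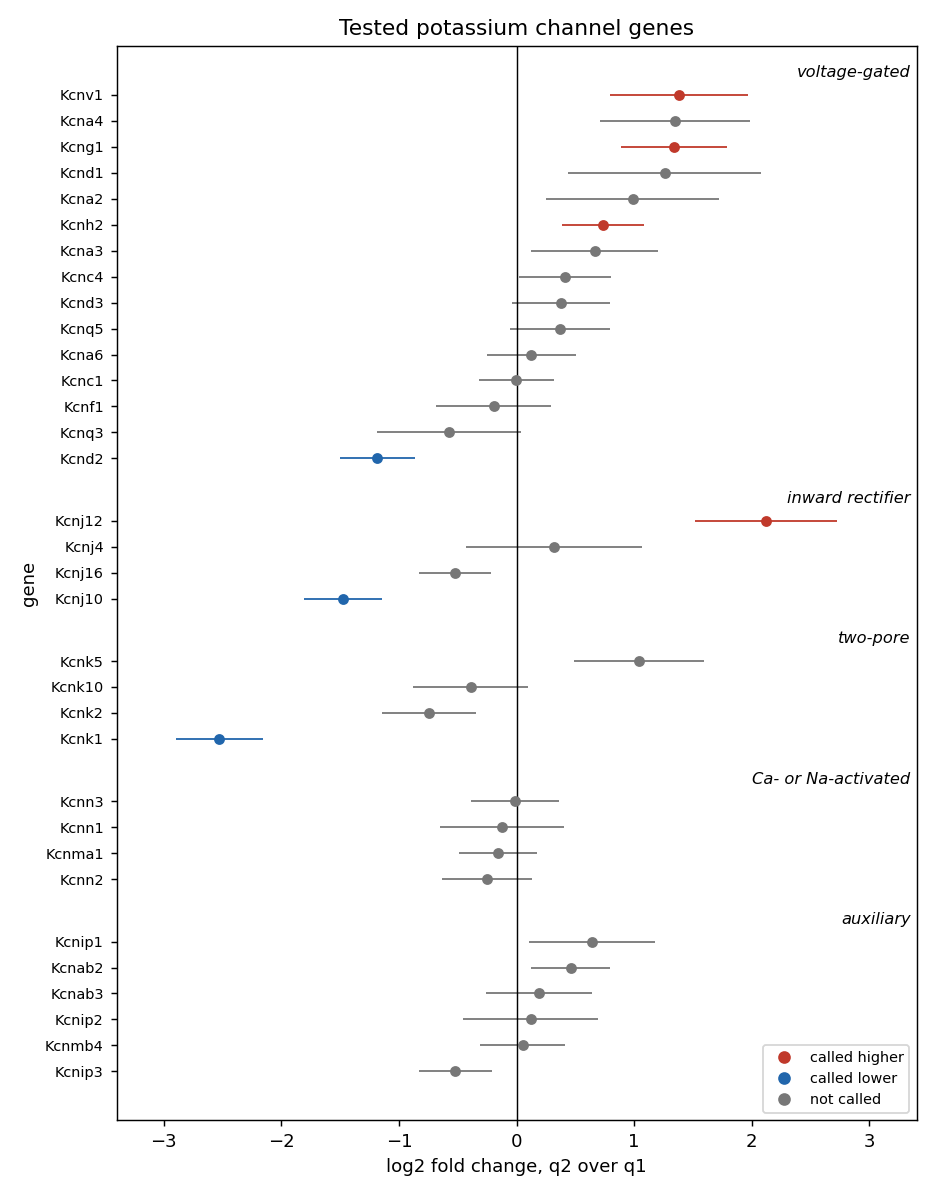
The x axis gives the log2 fold change (q2 over q1) from the authors' deposited table and the y axis 33 of the 37 tested genes, by class and ordered by value. Bars are the error implied by the authors' statistic on either side, not a spread between libraries; red is called higher, blue called lower and grey not called, with Kcnk1 at -2.53 and Kcnj12 at 2.12 as the extremes.

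In the Kv4 family, which carries A-type currents, Kcnd2 was called lower while Kcnd1 and Kcnd3 stood at 1.26 and 0.38 on the log2 scale by the authors' deposited table and were not called (Cuffdiff q = 0.235 and 0.53). Kcnd1 had an unadjusted p of 0.0423, and the difference between Kcnd2 and Kcnd1 was not tested. Kcnc4, which encodes a fast inactivating channel subunit, and Kcnc1, which encodes a fast delayed rectifier, were at 0.41 and -0.003 by the authors' deposited table, neither called. The Kv1 family holds low-threshold delayed rectifiers and, in Kcna4, an A-type subunit. All 4 tested Kv1 genes had a positive fold change and none was called by Cuffdiff, 2 of them having an unadjusted p under 0.05. Kcna4 was 2.55-fold higher by the authors' deposited table (Cuffdiff q = 0.0725), and Kcna2 1.98-fold higher with a q of 0.241. Kcna3 and Kcna6 were at 0.66 and 0.13 by the authors' deposited table. Of the Kcnq genes, which encode the M-current subunits and their relatives, Kcnq3 was at -0.58 and Kcnq5 at 0.37 by the authors' deposited table, neither called. The silent subunit gene Kcnf1 was at -0.19 by the authors' deposited table.

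Some large changes were not called and a smaller one was. Kcna4, Kcnd1 and Kcnk5 had absolute log2 fold changes over 1 without a call, while Kcnh2 was called at 0.73 by the authors' deposited table. The implied error was 0.82 for Kcnd1, 0.64 for Kcna4 and 0.56 for Kcnk5, against 0.35 for Kcnh2. For Kcnk1, Kcnj10 and Kcnd2 it lay between 0.32 and 0.37. Kcnd1 and Kcnd2, at a similar distance from 0, had statistics of 1.54 and -3.70 by the authors' deposited table. The implied error is computed from the statistic, so it restates this difference and gives no reason for it.

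**Figure D3:**
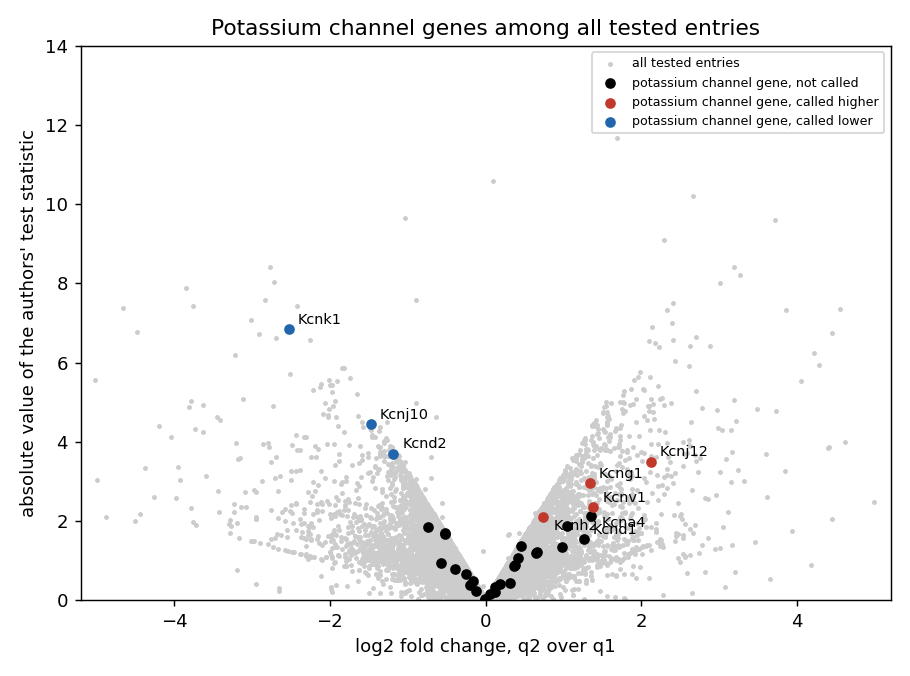
The x axis is the log2 fold change (q2 over q1) and the y axis the size of the test statistic without its sign, both from the authors' deposited table; grey points are 15197 tested entries, 17 of them outside the axes. Of the 37 tested potassium channel genes 33 are drawn, in red (called higher), blue (called lower) or black (not called); Kcnk1, Kcnj10 and Kcnd2 lie along the upper left edge, while Kcnd1 lies lower at a similar distance from 0 to Kcnd2.

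Among the other inward rectifiers, Kcnj16, which encodes Kir5.1, the partner of Kir4.1 in heteromeric channels, was at -0.52 by the authors' deposited table with an unadjusted p of 0.0151 and a Cuffdiff q of 0.127. Kcnj16 had the smallest implied error of the 37 members, 0.31. Kcnj4, which encodes Kir2.3, was at 0.32 by the authors' deposited table (Cuffdiff q = 0.817), beside its called relative Kcnj12. Of the two-pore genes, Kcnk2, which encodes the mechanosensitive TREK1, was 1.67-fold lower by the authors' deposited table (Cuffdiff q = 0.0848) and its relative Kcnk10 was at -0.39 (q = 0.589). Kcnk5, which encodes the pH-sensitive TASK2, went the other way at 1.04 by the authors' deposited table (Cuffdiff q = 0.101). Neither Kcnk2 nor Kcnk5 was called, at unadjusted p of 0.008 and 0.0107. These classes therefore held genes on both sides of 0.

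Calcium-activated channels lay close to 0. The BK channel gene Kcnma1 was at -0.16 by the authors' deposited table, and the SK channel genes Kcnn1, Kcnn2 and Kcnn3 were at -0.12, -0.25 and -0.01. The sign of Kcnn3 was positive after centring and after removal of the GC or the length trend, and that of Kcnc1 after centring and length removal. The 6 tested auxiliary genes ranged from -0.52 to 0.64. The calcium sensor gene Kcnip3 was at -0.52 by the authors' deposited table with an unadjusted p of 0.0173 and a Cuffdiff q of 0.138, and the other Kv4-binding genes Kcnip1 and Kcnip2 were at 0.64 and 0.12. The beta subunit genes Kcnab2 and Kcnab3 of Kv1 channels were at 0.46 and 0.19 by the authors' deposited table, with unadjusted p of 0.0521 and 0.546. The BK subunit gene Kcnmb4 was at 0.05 by the authors' deposited table, a sign that turned with the length trend removed. Kcnmb4 and Kcnd3 share their locus with an antisense entry, Kcnip1 with Kcnmb1 and Kcnn2 with a further entry, and whether counting used strand is not given in the sources, so reads of these genes may be mixed; no called member shares its locus.

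Fold changes rose with the GC content of transcripts over all tested genes. With 11749 tested entries of known GC content split into 10 equal groups, the median log2 fold change went from -0.31 at a median GC content of 41.1% to 0.30 at 59.9%. The 5 genes called higher had a median transcript GC content of 59.3% and the 3 called lower 49.6%, beside 53.3% for the 29 not called. Kcnh2 stands high on this scale, at 60.7%. With the trend removed, Kcnh2 went from 0.73 to 0.40 and was not called (Benjamini-Hochberg adjusted p from the rescaled Cuffdiff statistic = 0.464). Kcnh2 also missed the threshold when p was read from its statistic with nothing removed (adjusted p from the Cuffdiff statistic = 0.058). Kcnk1 stayed called at -2.56, Kcnj10 at -1.42, Kcnd2 at -0.92, Kcnj12 at 1.94, Kcnv1 at 1.46 and Kcng1 at 1.08. Kcna4, whose transcripts are at 45.4% GC, went from 1.35 to 1.51 and was then called (adjusted p from the rescaled Cuffdiff statistic = 0.024). The counts were then 4 higher and 3 lower of 37, with 3 of the 5 genes called higher as deposited among the 4, and 6.5% of the 11749 entries in that fit were called.

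**Figure D4:**
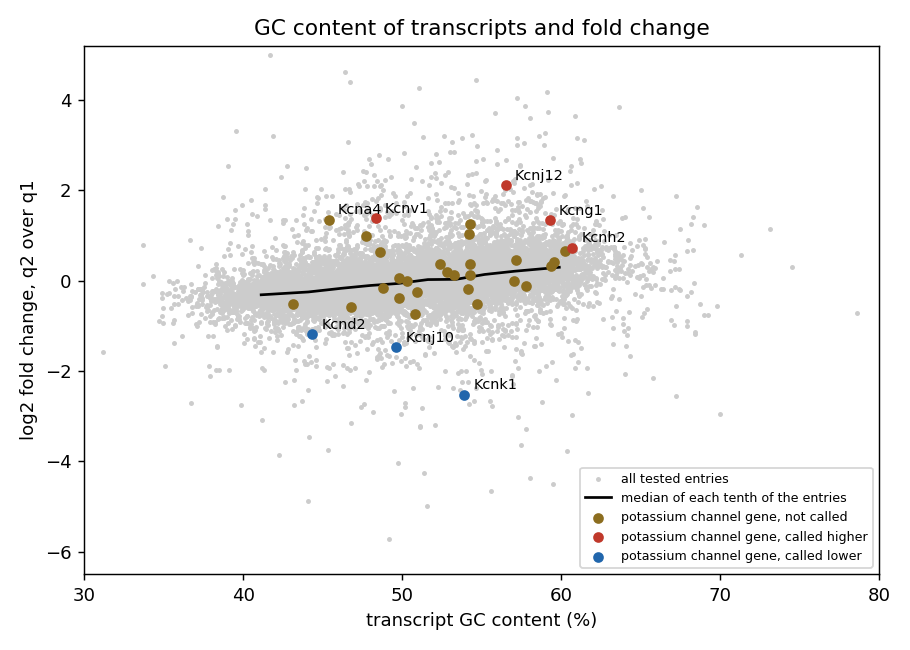
The x axis is transcript GC content in percent and the y axis the log2 fold change (q2 over q1) from the authors' deposited table; grey points are 11749 tested entries, and the black line joins the medians of 10 equal groups by GC content. Of the 37 tested potassium channel genes 33 are drawn, in red (called higher), blue (called lower) or brown (not called); Kcnh2 lies at the right, where the black line reaches 0.30, and Kcnk1 lies far below it.

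**Figure D5:**
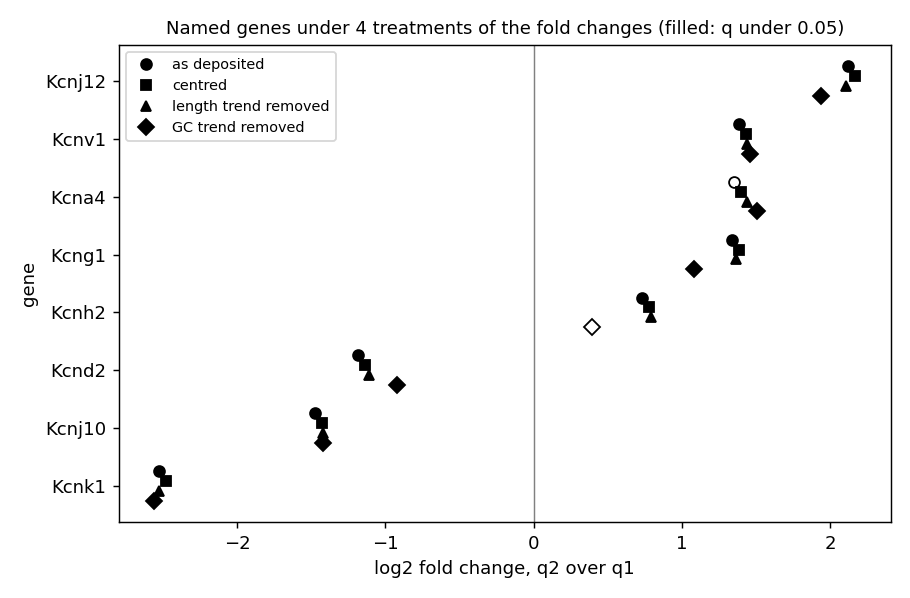
The x axis is the log2 fold change (q2 over q1) of 7 of the 8 called genes and of Kcna4, named on the y axis, as deposited, centred on the median of all tested entries, with the length trend removed and with the GC trend removed. Filled symbols have an adjusted p or q under 0.05: Kcnh2 is open only with the GC trend removed, and Kcna4 is open only as deposited.

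Genes that work with these channels but carry other names were read from lists chosen with earlier results of these data known. The share called over all tested entries, 7.63%, stands beside each of these lists and those that follow. Of 4 tested partner subunits, 1 was called higher and none lower. That gene was Dpp10, an auxiliary subunit of Kv4 channels, 2.94-fold higher in q2 by the authors' deposited table (Cuffdiff q = 0.0274), while its relative Dpp6 was at -0.01. Amigo1, which binds Kv2 channels, was at 0.64 by the authors' deposited table (Cuffdiff q = 0.185), and Akap5, an anchoring protein that binds Kcnq channels, was at -0.07. Of 7 tested genes on the list for Kv1 anchoring and scaffold, Lgi2 was called higher, at 1.34 by the authors' deposited table (Cuffdiff q = 0.0434), and 6 were not called. Whether Lgi2 itself acts on Kv1 channels was not tested. Neither of 2 tested HCN channel genes was called by Cuffdiff and 0 had an unadjusted p under 0.05, and Hcn3, the one with the larger statistic, was at 0.50 by the authors' deposited table.

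The sodium-potassium pump, which builds the gradient these channels use, had 2 of 8 tested genes called lower, 1 called higher and 5 not called. Among them the beta subunit gene Atp1b2 was 1.96-fold lower in q2 by the authors' deposited table (Cuffdiff q = 0.00162). Fxyd2, a regulator of the pump, had an infinite positive log2 fold change by the authors' deposited table, read as a value of 0 in q1, and was called higher (Cuffdiff q = 0.0063). Of 6 tested cation-chloride cotransporters 1 was called, the potassium-chloride exporter gene Slc12a7, 2.84-fold higher by the authors' deposited table (Cuffdiff q = 0.00719).

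Genes on lists of cell type markers changed too, and the astrocyte and neural stem cell lists share Slc1a3. Of the astrocyte markers 11 were tested, and 7 of these were called lower (Aqp4, Ndrg2, Gfap, Slc1a2, Gja1, Aldh1l1 and Aldoc) and none higher, with a median log2 fold change of -0.87 and a range of -2.70 to 0.29 by the authors' deposited table. Kcnj10, Kcnk1 and Atp1b2, which astrocytes express, were also lower, but these 3 were picked from genes already called lower. The other 4 tested astrocyte markers were not called, and neither was Kcnj16, the partner of Kcnj10, at -0.52. Oligodendrocyte lineage markers, also relevant for Kcnj10, had 3 of 10 called higher (Mbp, Myrf and Nkx2-2) and 3 lower (among them Pdgfra and Gpr17), with Pdgfra lowest at -2.83 by the authors' deposited table. Neuron markers had 1 of 7 called higher, Syt1, and 1 lower, Elavl3, with a median of -0.13. Neural stem cells are the labelled cell type, but a fold change between the groups cannot show how strongly either group expresses their markers. These markers were tested for 8 of 9 genes, among them Nes at 0.75 (Cuffdiff q = 0.0157), Sox2 at 0.04 and Fabp7 at -1.13 by the authors' deposited table. Of these 8, 1 was called higher, Nes, and 2 lower, Fabp7 and Hes5. Fibroblast and mesenchymal markers had 2 of 5 called higher (Fn1 and Acta2) and 1 lower (Pdgfra, which the oligodendrocyte list also holds). Of endothelial and pericyte markers 1 of 9 and of microglia and macrophage markers 2 of 8 were tested, and Cuffdiff called 0 of these, 0 having an unadjusted p under 0.05, with Kdr at 0.71 and Cd68 at 0.98 by the authors' deposited table as those with the largest statistics. In bulk RNA, fewer cells of a type and less RNA per cell cannot be told apart, and the part of these markers in the channel results was not tested.

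The other 55 potassium channel genes (59.8%) were not tested by the authors, against 42.9% of all entries. They comprise 21 of 40 voltage-gated genes, 11 of 15 inward rectifiers, 10 of 14 two-pore genes, 4 of 8 in the group of Kcnm, Kcnn, Kcnt and Kcnu genes and 9 of 15 auxiliary genes. Every Kcne gene of the heart and epithelial channel complexes and every Kcns silent subunit gene is among them, as are the GIRK genes Kcnj3, Kcnj5, Kcnj6 and Kcnj9, the KATP pore genes Kcnj8 and Kcnj11, and Kcnh1 and Kcnh3 to Kcnh8. Of the untested genes, 3 had an infinite positive log2 fold change by the authors' deposited table (Kcnh7, Kcnq1 and Kcnk9), read here as a value of 0 in q1, and 8 an infinite negative one, read as 0 in q2 (Kcnh1, Kcnj1, Kcnj6, Kcnk7, Kcnt2, Kcne1, Kcne4 and Kcnmb3). No fold is given for these, because the read numbers behind a 0 are unknown.

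Some potassium channel genes lie side by side in the genome. Within 1 Mb of each other on GRCm38 there were 18 pairs of adjacent members, and both genes were tested in 1 of them. That pair was Kcna3 and Kcna2 on chromosome 3, which lie 63.4 kb apart and were at 0.66 and 0.99 by the authors' deposited table, neither called. Kcnj10 lies 11.9 kb from Kcnj9, which was not tested. Kcnj16 lies 38.2 kb from Kcnj2, which was not tested either.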

How the data were processed

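The 4 libraries were made from poly(A) RNA with a SOLiD Total RNA-Seq kit, per the labels' protocols, and titles gave their groups. The submitters' processing notes name TopHat2 2.0.9, Cufflinks 2.2.1, Cuffdiff and build mm10 (GRCm38); Cuffdiff's version, gene annotation, read filters and strand setting are not given in the sources. The authors deposited log2 fold changes of q2 over q1, a test statistic (a score) and p-values with q-values, per the file headers, and all calls are theirs at a q under 0.05. A pair of columns of per-condition values (2 columns) matches no group and was not used, so depth, and with it precision, is unknown. Labels name different passages as replicates, so the spread between replicates is one between passages. Whether the passages are independent cultures or transductions is unknown here, and the p-values may not cover the spread between such cultures. Differences between the groups may therefore reflect the cultures as well as the shRNA.

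Members and gene lists were chosen with earlier results of these data known. Every tested member could be named, and from other lists the called genes or, failing those, the one with the largest statistic; further uncalled partners, pump genes and stem cell markers were named after their values were seen. Some genes that this rule takes are not reported here, though counts include them. Starts were converted to count from 1. GC content (median) and length (maximum) came from GENCODE M21 transcripts by symbol, for all 92 members. The alternatives subtracted the overall median, or the median in 50 bins of GC content or length, rescaled the statistic by the implied error and read p from a monotone fit of the authors' p on the absolute statistic, with Benjamini-Hochberg adjustment over all entries in the fit. Further alternatives were q thresholds of 0.01 and 0.1, an absolute log2 fold change of at least 1, normal p-values and rows sharing no locus. Promoter windows came from RefSeq on GRCm38.p6 for 67 of 92 symbols. Software was Python 3.11.15 with matplotlib 3.10.9, pandas 2.3.3, scikit-learn 1.9.0, numpy 2.4.6 and scipy 1.17.1.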

Additional observations from a re-analysis of the deposited data

How the results depend on the processing

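Against 8 called potassium channel genes, 5 higher and 3 lower, 5 were called at a q under 0.01, of which 2 were higher, and 4 with p from a normal distribution, of which 1 was higher; of all tested entries 4.36% and 2.8% were called under these settings, against 7.63% as deposited. A minimum absolute log2 fold change of 1 left 3 called higher, with 4.49% of all entries called. The lower calls numbered 3 under each of these and under centring and both trend corrections, and 4 at a q under 0.1. Kcnk1, Kcnj10, Kcnd2 and Kcnj12 kept their calls in all 9 alternatives. Of these, a q under 0.1 could not remove a call. Keeping only rows that share no locus could not either, because no called member shares its locus. The q threshold of 0.01 and the minimum fold change only cut the same deposited values again. Kcng1 lost its call only with normal p-values (adjusted p from the Cuffdiff statistic = 0.0913), Kcnv1 there and at a q under 0.01, and Kcnh2 in 5 alternatives. A q under 0.1 added Kcna4 and Kcnk2, and centring, GC removal and length removal each added Kcna4. The members' median log2 fold change was 0.17 after centring and 0.061 after GC removal, against 0.12. Signs turned for uncalled genes near 0: Kcnn3 was at 0.036 after centring, 0.035 after GC removal and 0.067 after length removal, Kcnc1 at 0.045 after centring and 0.039 after length removal, and Kcnmb4 at -0.017 after length removal. Reading p from the statistic with nothing removed was chosen after seeing the data. No paired analysis was possible because the table holds 1 pooled comparison and no value per library, and for the same reason no library could be left out. Depth is unknown, so for the 55 untested genes no limit of detection can be given.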
